A study of Clonorchis sinensis with 4 samples.

Results

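The small RNA of metacercariae of the Chinese liver fluke Clonorchis sinensis was set against that of its adult worms, over every known miRNA, predicted miRNA, piRNA and Rfam entry listed in either library. The comparison covers 5912 entries out of the 6390 that the series lists for its stages. These are 54 known miRNAs, 128 predicted miRNAs, 5501 piRNAs and 229 Rfam families. Every listed entry was taken, whatever its ratio, and the lowest count listed for a predicted miRNA or piRNA is 10 tags. The series holds 4 libraries, of which 2 are compared here. The others, 1 of eggs and 1 of vesicles shed by adult worms, serve only as context.

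The metacercariae group is 1 library of C. sinensis at the metacercaria stage, and the adult worms group is 1 library at the adult stage. Both are total RNA extracted with Trizol, with no treatment named. The labels give neither the number of worms pooled, nor the host they came from, nor the age of the adults, nor whether host tissue or cyst walls were removed. Every difference below therefore compares 2 libraries, has no replicate check and carries no p-value.

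Metacercariae are the encysted, resting larvae that freshwater fish carry, mostly in their muscle. When a mammal eats the fish, the larvae leave their cysts, move into the bile ducts and grow into hermaphrodite adults whose uterus fills with eggs. miRNAs are short RNAs that repress messenger RNAs paired to their seed, and several, such as miR-124 of neurons and miR-1 of muscle, mark the same tissue in very distant animals. piRNAs are guides of Piwi proteins that silence transposons in the germ line of most animals. Parasitic flatworms are known for having lost the classical Piwi genes, so the piRNA class is used below as the authors' annotation and nothing more.

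Mature sequences could be read for 5 of the known miRNAs, by name, from the deposited vesicle table, since the stage tables carry names only. They are shown because they tie 5 of the compared names to their seeds, and they include 1 entry lower in metacercariae (bantam-3p) and none that was higher. Capitals mark the seed, bases 2 to 8.
bantam-3p: tGAGATCGcgattaaagctggt
miR-36a-3p: cCACCGGGtagacattcattcgc
miR-10-5p: aACCCTGTagacccgagtttgg
let-7-5p: gGAGGTAGttcgttgtgtggt
miR-2162-3p: tATTATGCaacgtttcactct
The 5 seeds differ from each other, so these miRNAs belong to separate families. Stage tables list bantam and bantam-3p as separate entries, and no sequence is given there to tell them apart. The same doubt holds for other entries of like name, such as miR-1_1 beside miR-1 or miR-190-5p beside miR-190. Their names come from different reference species, so they may share tags, and the shares within a family given below are shares of tags by name.

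Annotated tags numbered 20490790 in metacercariae and 19404746 in adult worms. RPM below is tags in each 1000000 annotated tags. An unlisted entry of a class listed from 1 tag was held at 3 tags, a set value and not a maximum. These 3 tags are 0.146 RPM in metacercariae and 0.155 RPM in adult worms. The class makeup of the libraries differed widely. Known miRNAs took 38.8% of annotated tags in metacercariae, against 16.1% in adult worms, a ratio of 2.41. Predicted miRNAs took 2.96% in metacercariae and 2.24% in adult worms, a ratio of 1.32. piRNAs took 0.617% in metacercariae and 0.917% in adult worms, a ratio of 0.673. Shares were also taken among named entries only, without the pooled classes described next. Their log2 ratio was 0.11 for known miRNAs, -0.76 for predicted miRNAs and -1.73 for piRNAs, so predicted miRNAs changed direction. Known miRNAs made up most of the named tags in both libraries, so their share there had little room to rise. Shares of the other classes depend on how much of that total known miRNAs fill. These values therefore cannot tell whether the 2.41 ratio reflects the pooled classes.

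The remainder of the metacercarial library was accordingly smaller. Tags pooled as repeat, exon, intron or intergenic made up 54.3% of the total in metacercariae, against 79.5% in adult worms. Of these, repeat tags differed by the largest factor, at 0.781% in metacercariae and 2.90% in adult worms (3.71-fold lower). Exon tags, which can be pieces of messenger RNA, stood at 4.34% in metacercariae and 8.34% in adult worms. Fragments of ribosomal RNA stood at 0.0779% in metacercariae and 0.674% in adult worms, an 8.65-fold difference. These fragments, often read as a sign of RNA breakdown, moved with the stage beside every miRNA result below, and their part in those results was not tested.

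**Figure D1:**
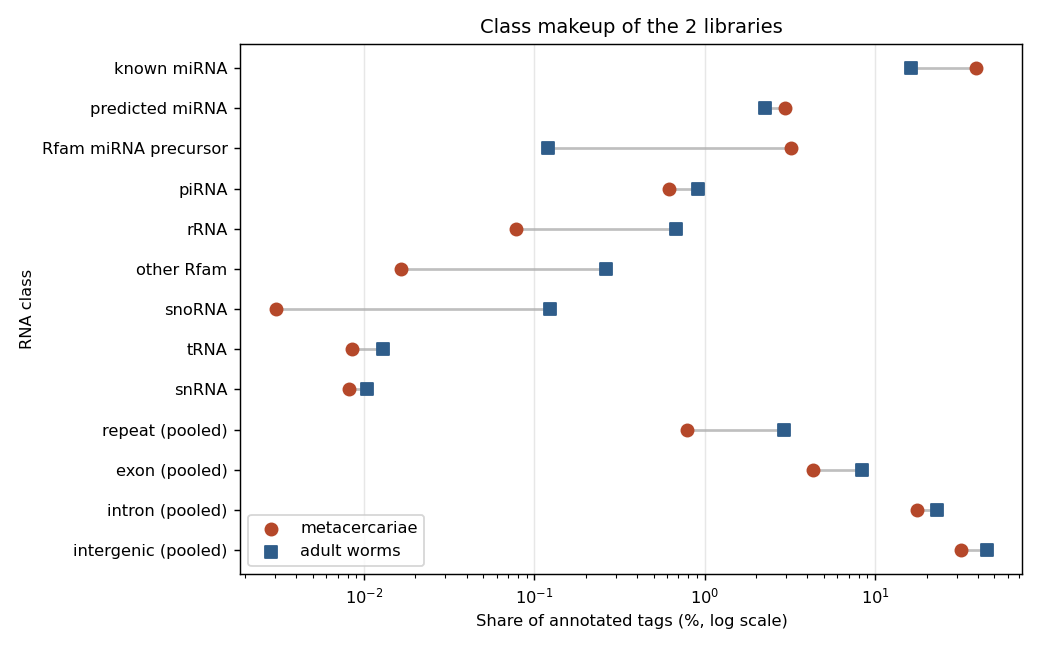
Share of annotated tags (%, log scale) in each RNA class, with circles for the metacercarial library and squares for the adult library, 1 library each. Known miRNAs stand at 38.8% in metacercariae and 16.1% in adult worms, while rRNA fragments stand at 0.0779% and 0.674%.

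Because of this shift, each entry was read on 2 scales, relative to all annotated tags of the library (the library scale) and relative to the tags of its own class (the class scale). An entry was called higher or lower only when its ratio was at least 4 on both scales, its larger count was at least 10 tags, and the exact 95% interval of the ratio, from the binomial distribution, was clear of 2-fold on both. Intervals cover counting error only, since amplified tags without identifiers can be copies of 1 molecule. Ratios below are metacercariae over adult worms, on the library scale first and on the class scale second, and a fold described as lower is the inverse.

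Of the 49 known miRNAs with enough tags, 11 were higher in metacercariae (22.4%) and 2 were lower (4.08%). On the class scale alone 11 were higher and 9 lower. Entries of the nervous system and muscle lists, which held 8 and 5 of the 49, made up 7 of the 11. These bear only the names miR-124, miR-7, miR-1 and miR-133, and entries of like name may share tags. The lists were chosen with earlier results of these data known. The median log2 ratio over the 49 was 0.94 on the library scale and -0.33 on the class scale. Of 8 nervous system entries, 4 were called higher and 0 lower, with medians of 3.48 and 2.21. Together these 8 held 26.03% of known miRNA tags in metacercariae and 3.68% in adult worms. Of 5 muscle entries, 3 were called higher and 0 lower, with medians of 3.37 and 2.10, and their tags made up 15.6% of the class in metacercariae and 2.65% in adult worms.

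miR-124, the best known neuronal miRNA, led the difference. miR-124a-3p had 1482147 tags in metacercariae and 19201 in adult worms, a ratio of 73.1 on the library scale (72.1 to 74.2) and 30.4 on the class scale. miR-124b-5p, a 5p entry of the family, had 81623 tags in metacercariae and 750 in adult worms, with ratios of 103 and 42.9. Together the 2 entries formed 19.7% of known miRNA tags in metacercariae and 0.637% in adult worms. The proportion of the entries moved little by comparison, since miR-124b-5p made up 5.22% of the family in metacercariae and 3.76% in adult worms.

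miR-7 acts in sensory and neurosecretory cells of flies and vertebrates. Its most abundant entry, miR-7-5p, had 348040 tags in metacercariae and 34271 in adult worms. This gave a ratio of 9.62 on the library scale and 3.999 on the class scale, which is just under the limit of 4, so it was not called. The minor entries miR-7-5p_1, with 4119 tags in metacercariae and 118 in adult worms (ratios 33.1 and 13.7), and miR-7-3p, with 4426 and 324 tags in the same order (12.9 and 5.38), were called higher. miR-7-3p lost its call when the most abundant entry of each library, miR-71a-5p and bantam, were both left out of both class totals (log2 ratio 1.75). The remaining members of the list did not pass: miR-96-5p had ratios of 3.47 and 1.44, miR-219-5p of 2.77 and 1.15, and miR-219-5p_1 of 1.91 and 0.796. miR-96 belongs to sensory cells in vertebrates and miR-219 to their glia and neurons, so the list was not uniform.

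Among the muscle miRNAs, miR-1 itself had 1154930 tags in metacercariae and 71696 in adult worms, with ratios of 15.3 and 6.34. The 5p entry miR-1a-5p had 47734 tags in metacercariae and 4384 in adult worms (10.3 and 4.29). miR-133, which lies beside miR-1 in the genomes of many animals, had 1480 tags in metacercariae and 27 in adult worms (51.9 and 21.6). All 3 were called higher. Without miR-71a-5p and bantam in the class totals, the calls of miR-1 (log2 ratio 1.99) and miR-1a-5p (1.42) were lost. The like-named entries miR-1_1 (5.23 and 2.18) and miR-1b-3p (4.57 and 1.90) were above 4 on the library scale alone. Among entries of the miR-1 name, miR-1b-3p held 2.17% of miR-1 tags in metacercariae and 6.71% in adult worms, a comparison that no scaling alters.

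**Figure D2:**
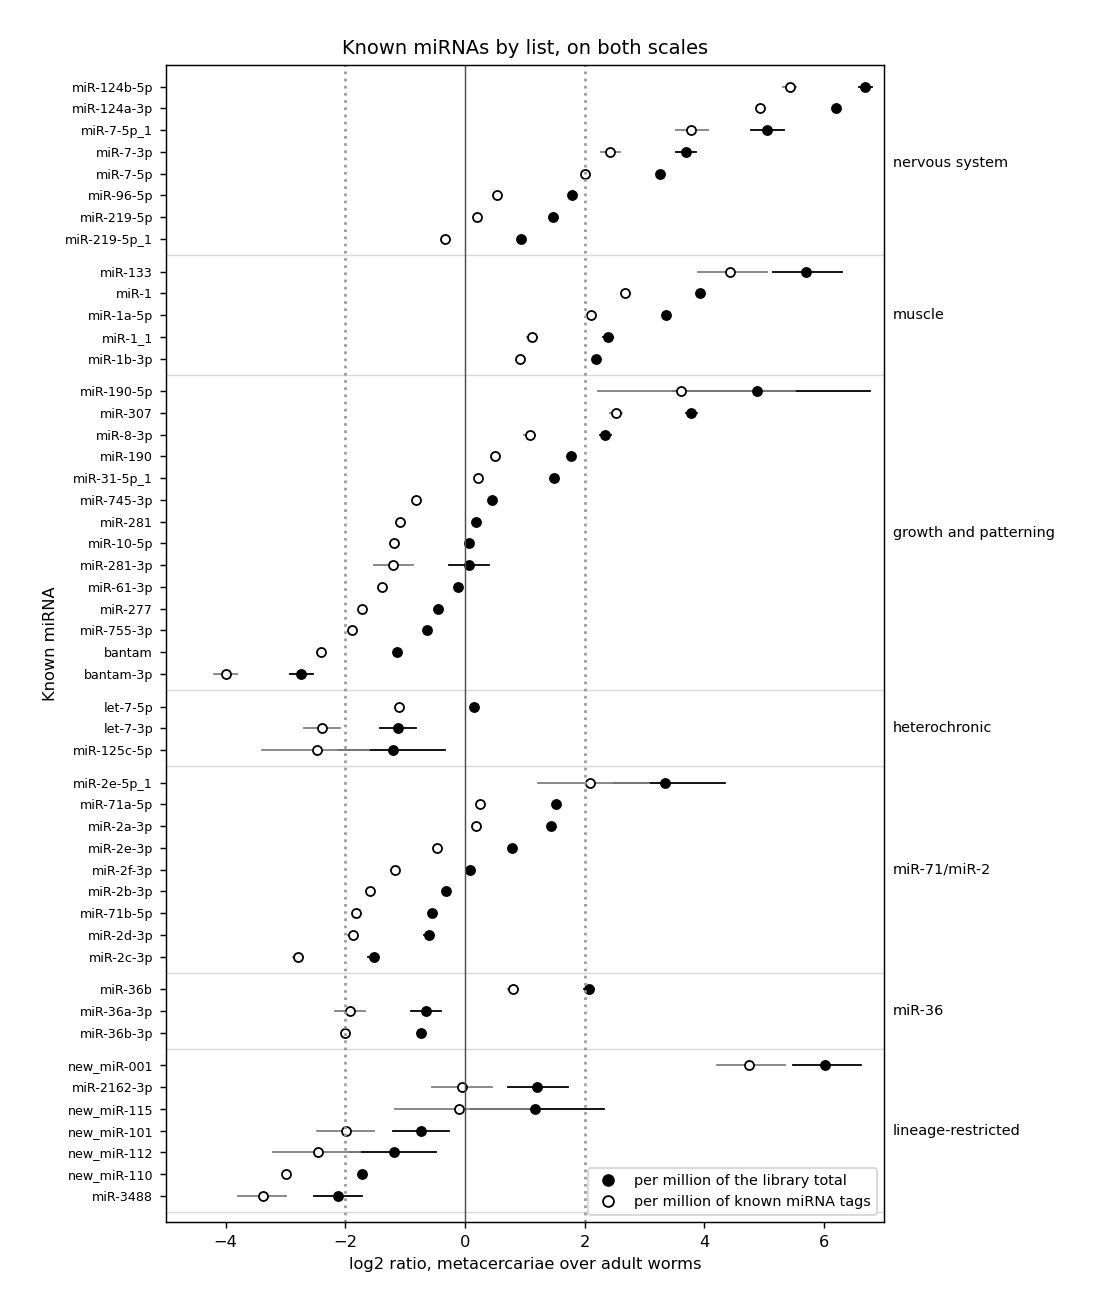
log2 ratio of metacercariae over adult worms for the 49 known miRNAs with enough tags, by list, with filled circles for the library scale, open circles for the class scale, lines for 95% counting intervals and dotted lines at 4-fold. Entries of miR-124, new_miR-001 and miR-133 lie farthest right, and bantam-3p and miR-3488 lie beyond the left line on both scales.

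The growth and patterning list held 14 members, of which 2 were higher and 1 lower, with median log2 ratios of 0.13 and -1.14. Its summed share was 14.9% of known miRNA tags in metacercariae, against 52.9% in adult worms. The largest part in adult worms came from bantam, which promotes growth and cell survival in flies. bantam had 539243 tags in metacercariae and 1122549 in adult worms, or 6.78% and 35.8% of known miRNA tags. Its ratio was 0.455 on the library scale and 0.189 on the class scale, so it passed the limit on the class scale alone and was not called. The entry bantam-3p, whose sequence is given above, had 249 tags in metacercariae and 1568 in adult worms, and was lower by 6.65-fold and 16.0-fold.

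Ratios between abundant miRNAs do not depend on the scale. There were 2.75 tags of miR-124a-3p per tag of bantam in metacercariae and 0.0171 in adult worms. miR-71a-5p stood at 4.08 per bantam tag in metacercariae and 0.647 in adult worms. The leading miRNA thus differed, being miR-71a-5p in the larva and bantam in the adult. The corresponding numbers in the egg library were 0.0672 for miR-124a-3p and 2.30 for miR-71a-5p.

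The higher members of the growth and patterning list were miR-307, with 13464 tags in metacercariae and 926 in adult worms (13.8 and 5.72), and miR-190-5p, with 124 and 4 tags in the same order (29.4 and 12.2). The call of miR-307 was lost without miR-71a-5p and bantam in the class totals (log2 ratio 1.84). The like-named entry miR-190 was far more abundant, and its 130141 tags in metacercariae and 36085 in adult worms gave ratios of 3.42 and 1.42. miR-10-5p, encoded within Hox clusters in many animals, was nearly level per library, with 156377 tags in metacercariae and 140715 in adult worms (1.05 and 0.438). miR-277, a regulator of amino acid metabolism in flies, had 183782 tags in metacercariae and 238934 in adult worms (0.728 and 0.303). miR-8-3p, a growth regulator in flies, had ratios of 5.08 and 2.11, and miR-31-5p_1 of 2.80 and 1.17. The other members, miR-61-3p, miR-281, miR-281-3p, miR-745-3p and miR-755-3p, lay between 0.646 and 1.37 on the library scale. All 5 were below 1 on the class scale, at 0.269 to 0.570.

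Heterochronic miRNAs time larval transitions in nematodes, and none of the 3 listed here was called in either direction. let-7-5p had 11934 tags in metacercariae and 10145 in adult worms (1.11 and 0.463). let-7-3p had 141 tags in metacercariae and 290 in adult worms (0.460 and 0.191), and miR-125c-5p had 17 and 37 tags in the same order (0.435 and 0.181). The 2 let-7 entries therefore stood in different proportions, let-7-3p being 1.17% of let-7 tags in metacercariae and 2.78% in adult worms.

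The miR-71/miR-2 list, a cluster found in flatworms and other invertebrates, was the most abundant in metacercariae, with 43.0% of known miRNA tags against 39.2% in adult worms. Of its 10 members 1 was higher and 0 lower. miR-71a-5p had 2200299 tags in metacercariae and 726689 in adult worms (2.87 and 1.19), and miR-2a-3p had 1089187 and 379345 in the same order (2.72 and 1.13). The called member was the rare miR-2e-5p_1, with 129 tags in metacercariae and 12 in adult worms (10.2 and 4.23). Its call was lost without miR-71a-5p and bantam in the class totals (log2 ratio 1.40). Members of the cluster did not move as a unit. miR-71b-5p was 0.871% of miR-71 tags in metacercariae and 3.56% in adult worms, and miR-2b-3p was 3.54% of miR-2 tags in metacercariae and 10.6% in adult worms. miR-2c-3p had 1394 tags in metacercariae and 3795 in adult worms, with ratios of 0.348 and 0.145.

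The miR-36 family, which acts in the embryo of nematodes, had 3 entries and no call. miR-36b-3p had 14105 tags in metacercariae and 22306 in adult worms (0.599 and 0.249), and miR-36a-3p had 225 and 335 in the same order (0.636 and 0.264). miR-36b went the other way, with 6002 tags in metacercariae and 1353 in adult worms (4.20 and 1.75). It therefore made up 29.5% of the family's tags in metacercariae and 5.64% in adult worms. The egg library held 378887 tags of miR-36b-3p, 4717 of miR-36a-3p and 25388 of miR-36b, more than either of the other stages.

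Of 11 lineage-restricted entries, 7 had enough tags, 1 was higher and 1 was lower. new_miR-001, a name given for C. sinensis, had 1913 tags in metacercariae, 28 in adult worms and 25 in eggs, with ratios of metacercariae over adult worms of 64.7 and 26.9. miR-3488, known from schistosomes, had 66 tags in metacercariae and 271 in adult worms, and was lower by 4.34-fold and 10.4-fold. new_miR-110 was the most abundant of them, with 4472 tags in metacercariae and 14021 in adult worms (0.302 and 0.126), and was past the limit on the class scale alone. miR-2162-3p, whose sequence is given above, had 122 tags in metacercariae and 50 in adult worms (2.31 and 0.961). All 11 of the higher known miRNAs were closer in the eggs to the adult level than to the metacercarial level, on the log of RPM, as was 1 of the 2 lower ones. The higher entries were picked for standing out in metacercariae, so their nearness to adults is a description only.

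Predicted miRNAs carry no family name and were placed by the authors on genome scaffolds. Their sequences were not available here, so kinship to named miRNAs was not checked. All 128 had enough tags, and 12 were higher (9.38%) and 21 lower (16.4%) in metacercariae. On the library scale alone 22 were higher and 21 lower. An unlisted predicted miRNA or piRNA has at most 9 tags, and folds against such a value are lower bounds. The called sets differed in weight, as the 21 lower entries held 27.6% of predicted miRNA tags in adult worms and the 12 higher entries held 8.72% in metacercariae. The median log2 ratio over all 128 was 0.21 on the library scale and -0.19 on the class scale.

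Among the lower entries 3 were abundant in adult worms and nearly absent from metacercariae. novel_mir124 (scaffold NW_017386003, 3196 to 3237) had 79 tags in metacercariae and 51819 in adult worms, and was lower by 693-fold and 913-fold. novel_mir1 (scaffold NW_008751893, 603415 to 603479) had 46 tags in metacercariae and 37572 in adult worms, 862-fold and 1136-fold lower. novel_mir131 (scaffold LN628721, 133712 to 133777) had 240 tags in metacercariae and 16171 in adult worms, 71.2-fold and 93.7-fold lower. A further entry lay on a scaffold of C. sinensis itself. novel_mir15 (scaffold DF143035, 439360 to 439422) was unlisted in metacercariae and had 7605 tags in adult worms, so it was at least 892-fold and at least 1176-fold lower.

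The egg library set these entries apart from each other. novel_mir1 had 629565 tags in eggs, more than in either of the other stages, whereas novel_mir15 had 206, novel_mir124 had 16532 and novel_mir131 had 4542. novel_mir76 (scaffold NW_008751684, 2387518 to 2387580) followed novel_mir1, being unlisted in metacercariae, with 2718 tags in adult worms and 28993 in eggs. novel_mir68 (scaffold NW_008751743, 156467 to 156534) was unlisted in metacercariae too, with 1067 tags in adult worms and 2256 in eggs. Of the 21 lower entries, 16 were listed in eggs and 5 stood higher there than in adult worms, in RPM. Adult worms carry eggs in the uterus, and the share of egg RNA in the adult library was not tested.

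The other lower entries named by size were novel_mir17 (477 tags in adult worms) and novel_mir179 (464), both unlisted in metacercariae, novel_mir143 (12 tags in metacercariae and 430 in adult worms) and novel_mir52 (11 and 148 in the same order). Of the 21 lower entries, 13 were unlisted in metacercariae, and the 21 had a median of 332 tags in adult worms (51 to 51819).

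The 12 higher predicted miRNAs had a median of 677.5 tags in metacercariae (54 to 38373). novel_mir36 (scaffold DF142853, 783117 to 783174) had 456 tags in metacercariae and was unlisted in adult worms, at least 48.0-fold and at least 36.4-fold higher. novel_mir43 (scaffold DF144243, 118515 to 118580) had 305 tags in metacercariae and novel_mir136 (scaffold DF142865, 664762 to 664820) had 266, and both were unlisted in adult worms. In eggs these 3 had 21, 14 and 11 tags, so they were near the listing minimum outside the larva. novel_mir146 had 234 tags in metacercariae and 13 in adult worms (17.0 and 12.9), and novel_mir80 had 3862 and 295 in the same order (12.4 and 9.41). The largest count among the 12 belonged to novel_mir8 (scaffold DF142907, 118625 to 118681), with 38373 tags in metacercariae and 6016 in adult worms (6.04 and 4.58), and its call was lost with known and predicted miRNAs taken as 1 class.

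The most abundant predicted miRNA of metacercariae, novel_mir74 (scaffold LN627531, 32447 to 32518), had 183292 tags there and 43010 in adult worms. It made up 30.3% of the class in metacercariae and 9.88% in adult worms, with ratios of 4.04 and 3.06, and was not called. novel_mir79 behaved alike, with 47497 tags in metacercariae and 11063 in adult worms (4.07 and 3.09). novel_mir3, with 73310 and 47431 tags in the same order, and novel_mir73, with 52033 and 30953, had class ratios of 1.11 and 1.21. The neighbours novel_mir12 and novel_mir148 lie 103 bp apart on scaffold NW_008751832 and had class ratios of 0.783 and 0.387.

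By scaffold species, which a deposited scaffold table gives by name for most prefixes, 80 predicted miRNAs lay on C. sinensis scaffolds, 32 on scaffolds of the cat liver fluke Opisthorchis viverrini and 13 on those of Fasciola hepatica. Entries on C. sinensis scaffolds held 28.3% of predicted miRNA tags in metacercariae and 21.6% in adult worms. They included 9 of the 12 higher and 12 of the 21 lower, where they were 80 of all 128 predicted miRNAs. Entries on O. viverrini scaffolds held 24.2% in metacercariae and 41.3% in adult worms. Those on F. hepatica scaffolds held 46.9% in metacercariae and 25.04% in adult worms. The scaffold of novel_mir124 belongs to none of these species' named prefixes.

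**Figure D3:**
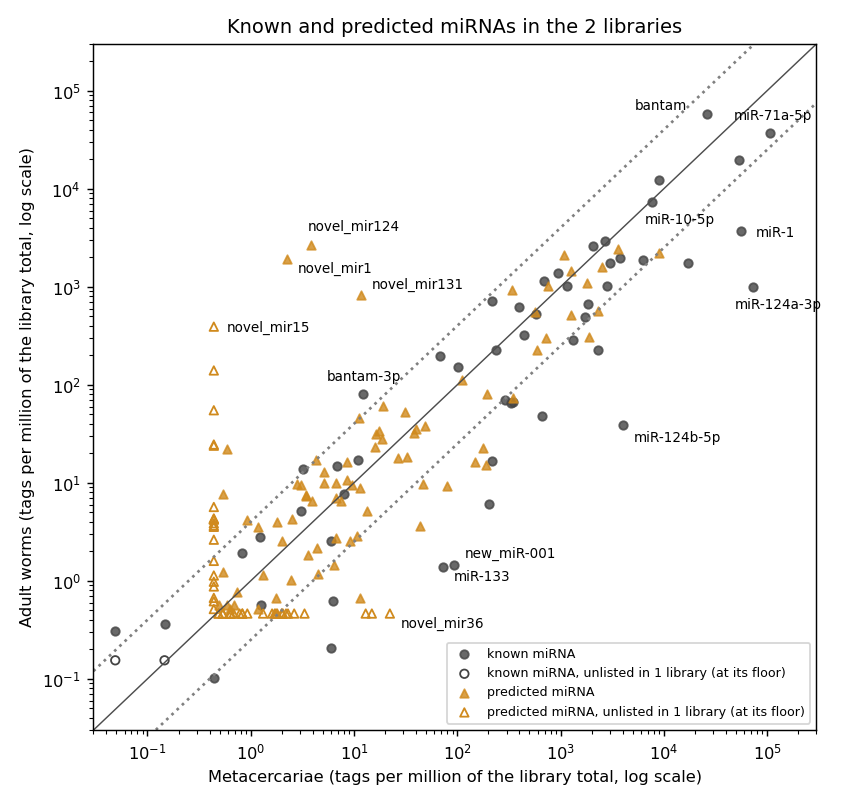
RPM (tags in each 1000000 annotated tags) in metacercariae (horizontal, log scale) and adult worms (vertical, log scale) for known miRNAs (circles) and predicted miRNAs (triangles), with the diagonal at equal level and dotted lines at 4-fold. Open symbols are unlisted in 1 library and drawn at the value they are held at, 3 tags for known and 9 for predicted miRNAs. novel_mir1 and novel_mir124 lie far above and miR-124a-3p far below the diagonal.

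The piRNA class held many entries of low count. Of its 5501 entries, 51 were higher (0.927%) and 78 lower (1.42%) in metacercariae. The split turned on the scale, with 170 higher and 78 lower on the class scale alone and 51 higher and 255 lower on the library scale alone. The median log2 ratio over all of them was -0.37 on the library scale and 0.20 on the class scale. Entries listed in both libraries numbered 2925 and carried 87.8% of piRNA tags in metacercariae and 82.8% in adult worms. Of these 2925, 25 were called higher and 41 lower. Entries in 1 library only had a median of 14 tags for the 928 of metacercariae and 15 tags for the 1648 of adult worms. Most of them could not reach 4-fold against the 9 tags at which an unlisted entry is held, so the share called cannot be set against that of known miRNAs. No entry dominated, since reaching 50% of the class's tags took 719 entries in metacercariae and 708 in adult worms.

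All piRNA entries were annotated to LTR retrotransposons of the Gypsy type, at 169 loci, of which 135 had listed entries in both libraries, 8 in metacercariae only and 26 in adult worms only. Entries of a locus overlap and are not independent, so sums per locus were compared. Listed tags only are summed, and each unlisted entry can hide up to 9 tags. Of 95 loci listed in both libraries with at least 100 tags in either, 45 had a class-scale ratio above 1 and 50 below 1, with a median of 0.917 and a range of 0.162 to 5.32. Of the 95, 2 were beyond 4-fold. The locus of the highest ratio, on scaffold DF142828.1 at 117145 to 117235, had 813 tags in metacercariae and 215 in adult worms. Its entries listed in both libraries had 540 and 215 tags, a class-scale ratio of 3.53. The locus of the lowest ratio, on scaffold DF144210.1 at 25766 to 26141, had 12 tags in metacercariae and 104 in adult worms. Its entry listed in both libraries had 12 and 19 tags, a class-scale ratio of 0.889. On such entries neither locus was beyond 4-fold. These 2 loci were picked after their values were seen. Loci listed in 1 library only are outside the 95. Among these, scaffold DF144866.1, plus strand, had 18 entries with 325 tags in adult worms and none listed in metacercariae. Each of the 18 can hide up to 9 tags in metacercariae, and 0 of them were called lower. It was likewise picked after its values were seen.

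The largest source of piRNAs in metacercariae was the locus on scaffold DF142881.1 at 693483 to 694702, plus strand. It gave 25161 tags in metacercariae and 17903 in adult worms, which is 19.9% and 10.1% of piRNA tags. Its ratio was 1.33 on the library scale (1.31 to 1.36) and 1.98 on the class scale. It held 28 of the 51 higher piRNAs and 2 of the 78 lower ones, which is 3.29% and 0.235% of its 850 entries. At all other loci 0.49% of entries were higher and 1.63% lower. Of the 449 entries of this locus listed in both libraries, 297 had a library-scale ratio above 1, against 734 of 2476 at the other loci. The locus was picked for its tags in metacercariae, and its entries overlap. Counts of its entries thus restate its sum and are no separate support, as are those of the scaffolds below. Over all other loci summed, there were 101225 tags in metacercariae and 159976 in adult worms, a ratio of 0.599 on the library scale.

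The other main scaffolds lay on the other side on the library scale. DF143974.1, plus strand, had 12393 tags in metacercariae and 23160 in adult worms, the most in adults, with ratios of 0.507 and 0.753 and with 0 of its 592 entries higher and 11 lower. DF143043.1, minus strand, had 8361 tags in metacercariae and 16507 in adult worms (0.480 and 0.713), with 1 of its 495 entries higher and 15 lower, where the shares over all piRNAs were 0.927% higher and 1.42% lower. DF143495.1, DF143548.1 and DF142828.1 had ratios of 0.626, 0.571 and 0.479 on the library scale and 0.930, 0.849 and 0.712 on the class scale. The order of the scaffolds by tags was thus led by DF142881.1 in the larva and by DF143974.1 in the adult. Plus-strand entries held 67.8% of piRNA tags in metacercariae and 64.7% in adult worms.

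The most abundant single piRNA of metacercariae, novel_pir5480 of the DF142881.1 locus, had 868 tags in metacercariae and 628 in adult worms (1.31 and 1.95). The most abundant of adult worms, novel_pir887 of DF143548.1, had 386 tags in metacercariae and 823 in adult worms (0.444 and 0.660). Of the called entries, novel_pir2989 had the largest class-scale bound among those higher, with 100 tags in metacercariae and none listed in adult worms, at least 10.5-fold and at least 15.6-fold. novel_pir5256 and novel_pir5253, both of DF142881.1, had 103 and 226 tags in metacercariae, against 10 and 24 in adult worms. On the lower side, novel_pir4517 was unlisted in metacercariae with 189 tags in adult worms, and novel_pir3072 had 14 tags in metacercariae and 274 in adult worms, 20.7-fold and 13.9-fold lower. Calls in this class thus rest on far fewer tags than those of the abundant miRNAs.

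**Figure D4:**
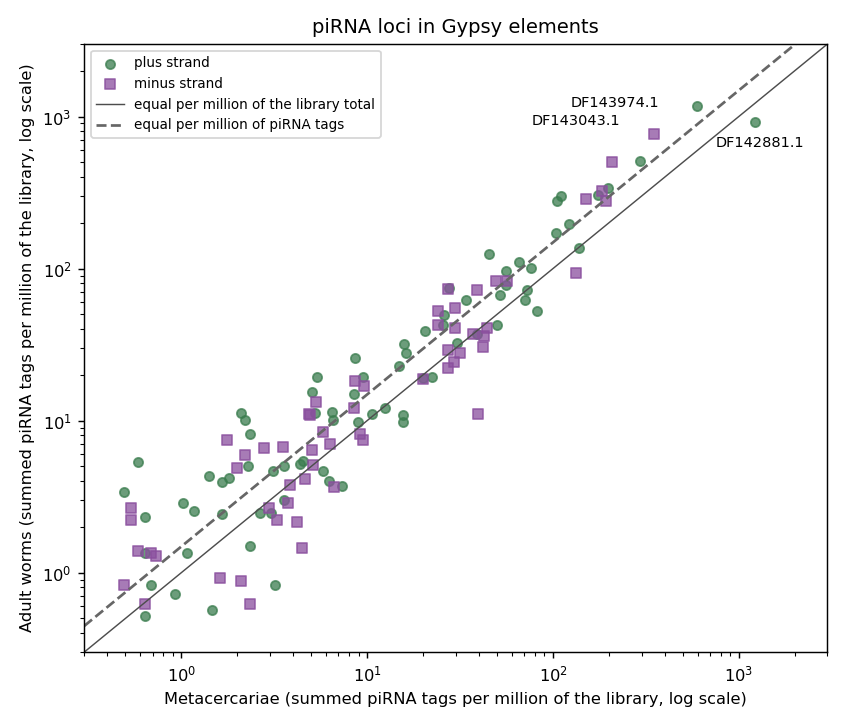
Summed piRNA tags, in RPM of annotated tags, at the 135 loci with listed entries in both libraries, metacercariae on the horizontal and adult worms on the vertical axis (both log), circles for plus and squares for minus strand. The solid line marks equal level per library and the dashed line equal level per piRNA tag, and of the 3 labelled loci DF142881.1 falls below the solid line and the others above it.

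The sharpest contrasts of class lay among Rfam families, the largest being that of snoRNA, 40.4-fold lower in metacercariae. Tags matching miRNA precursors made up 3.20% of annotated tags in metacercariae and 0.119% in adult worms, a ratio of 26.8. The mir-124 precursor alone had 568259 tags in metacercariae and 8471 in adult worms, a ratio of 63.5 on the library scale. Without it the precursors still had 87966 tags in metacercariae and 14714 in adult worms, a ratio of 5.66. Because mir-124 takes up 86.6% of the precursor class in metacercariae and tRNA is a class of 1 entry, calls on both scales are strict here. Of 79 Rfam families with enough tags, 6 were higher (7.59%) and 8 lower (10.1%).

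The precursors were set beside the known miRNAs of the same name. The mir-10 precursor had 37981 tags in metacercariae and 95 in adult worms, a ratio of 379 on the library scale and 14.1 on the class scale. Known miR-10-5p, by contrast, had a library-scale ratio of 1.05. The mir-7 precursor had 3654 tags in metacercariae and 15 in adult worms (231 and 8.61), and the mir-1 precursor had 6941 and 46 in the same order (143 and 5.33). These 3 were called higher. The let-7 precursor, with 130 tags in metacercariae and 1 in adult worms, had a library-scale ratio of 123 (21.7 to 4900), whereas known let-7 entries summed to a ratio of 1.10. In the mir-31 family the sides differed, as the precursor had 2 tags in metacercariae and 49 in adult worms while known miR-31 had a ratio of 2.80. For mir-71, with 24233 precursor tags in metacercariae and 8120 in adult worms, the precursor and known ratios were 2.83 and 2.79. Of 11 families with both kinds of tag in both libraries, 10 lay on the same side of equality on the library scale. All 11 known ratios were above 1 there, so this only counts the 10 precursors above 1. On the class scale the sides differed for let-7 (precursor 4.59, known 0.456), mir-10 (14.1 and 0.438) and mir-8 (0.125 and 2.11). They differed too for mir-31 (0.00144 and 1.165) and mir-71 (0.105 and 1.16), and for none of the others.

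**Figure D5:**
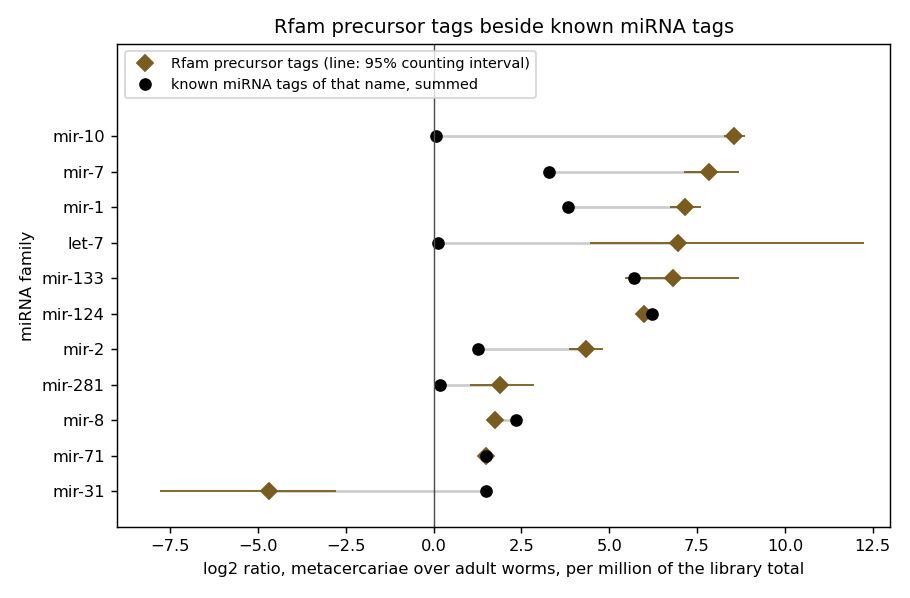
log2 ratio of metacercariae over adult worms on the library scale for 11 miRNA families, with diamonds for Rfam precursor tags and circles for summed known miRNA tags of that name. mir-124 and mir-71 nearly coincide, while for mir-10 the precursor stands at a ratio of 379 and the known miRNA at 1.05 (mir-96, with its precursor unlisted in metacercariae, is left out).

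The other higher families were mir-449, mir-184 and the serC leader. mir-449 had 583 tags in metacercariae and none in adult worms, which is 184-fold and 6.87-fold against the 3 tags it was held at. mir-184 had 1593 and 14 tags in the same order (108 and 4.02). mir-449 is known from ciliated cells of vertebrates, and mir-184 is shared by vertebrates and insects. The serC leader, a leader of bacterial messenger RNA, had only 18 tags in metacercariae and 2 in adult worms, with a library-scale ratio of 8.52 (2.04 to 75.7), and its call was lost with median-of-ratios and TMM factors. Since Rfam families span many animals, such tags can come from fluke or from host.

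Markers of host tissue were therefore read in both libraries. Of the muscle families mir-206, mir-208, mir-499 and mir-133, only mir-133 was listed, with 474 tags in metacercariae and 4 in adult worms, and flukes have a miR-133 of their own. Of 6 blood families, mir-451, which marks vertebrate red cells, had 1303 tags in metacercariae and 539 in adult worms, mir-223 had 1 tag in metacercariae, and the other 4 were unlisted in both. The liver and bile duct list of 6 families summed to 128 RPM in metacercariae and 41.6 RPM in adult worms. Most of that was the mir-8/mir-200 family, which the fluke shares, with 2486 tags in metacercariae and 703 in adult worms. The liver marker mir-122 had 7 tags in metacercariae and 43 in adult worms. Other members of that list went the other way, mir-194 with 109 tags in metacercariae and 61 in adult worms, and mir-21 with 13 and 0. mir-192 and mir-215 are 1 Rfam family, with 1 tag in each library. The general vertebrate list had 7 of 9 families listed and summed to 25.5 RPM in metacercariae and 21.4 RPM in adult worms. The part of host RNA in the precursor results was not tested.

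Among the lower families were 5 that belong to plants. mir-166 had 50 tags in metacercariae and 985 in adult worms (20.8-fold lower on the library scale), and MIR168 had 1 and 257 tags in the same order (271-fold, with an interval of 48.3 to 10760). MIR167_1, MIR171_1 and MIR159 had 61, 34 and 230 tags in adult worms, against 3, none and 23 in metacercariae. All 12 plant families summed to 85 tags in metacercariae and 1591 in adult worms, a 19.8-fold difference. The egg library held more still of some, with 11948 tags of mir-166 and 3932 of MIR168. The remaining lower families were mir-31, mir-24 (18 tags in metacercariae and 119 in adult worms) and mir-122. The source of these tags was not tested.

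The abundant families of rRNA, transfer-messenger RNA and snoRNA had fewer tags in metacercariae on the library scale, and none of them was called. They made up most of their classes in adult worms, so the class scale set them largely against themselves. The missing calls therefore do not show that these families were level. Small subunit rRNA had 8570 tags in metacercariae and 67279 in adult worms (8.29-fold lower per library), 5.8S rRNA had 5836 and 45184 in the same order (8.18-fold), and large subunit rRNA had 1152 and 17768 (16.3-fold). The rRNA families of Rfam include bacterial, archaeal and eukaryotic ones, and the organism of these fragments was not tested. Transfer-messenger RNA, which frees stalled ribosomes in bacteria, had 2228 tags in metacercariae and 45266 in adult worms, a 21.5-fold difference. The signal recognition particle RNA families summed to 369 tags in metacercariae and 2558 in adult worms, 7.32-fold lower.

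The snoRNA class had 623 tags in metacercariae and 23806 in adult worms, 40.4-fold lower. In adult worms nearly all of it was the family A. fumigatus snoRNA Afu_294, named from a fungus, with 257 tags in metacercariae and 23084 in adult worms. The other snoRNAs summed to 366 tags in metacercariae and 722 in adult worms, a difference of 2.08-fold. Spliceosomal snRNA was closer to level, with 1665 tags in metacercariae and 2018 in adult worms (0.781), as was tRNA, with 1743 and 2498 in the same order (0.661). Y RNA went the other way, with 321 tags in metacercariae and 99 in adult worms (3.07). The low level of rRNA fragments in metacercariae was thus not shared by every structural RNA.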

How the data were processed

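Small RNA of metacercariae and adult worms was compared as 1 library each, with eggs and vesicles as context. The authors deposited a tag count per small RNA entry with a class for each, and the library total in the count column's name, per the file headers. Their normalized column, headed TPM, is RPM: it equals the deposited count divided by that total, times 1000000. Not given in the sources used here are the aligner, the annotation tools for each class and the builds. For each stage the miRNA table and the piRNA table hold the same entries. Known miRNAs and Rfam families are listed from 1 tag, predicted miRNAs and piRNAs from 10.

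From the counts, ratios were computed on the library scale and on the class scale of the third column, with exact conditional binomial 95% intervals (Python 3.11.15, SciPy 1.17.1, pandas 2.3.3). An unlisted entry was held at 3 tags where its class is listed from 1 tag and at 9 tags otherwise. Figures were drawn with matplotlib 3.10.9. The computation was tested on simulated data. Alternatives were each scale alone, median-of-ratios and TMM factors (edgeR 4.0.16 in R 4.3.3, factors only), the class total without its most abundant entry, no tag minimum, and only entries listed in both libraries. For known miRNAs the most abundant entry differed between the libraries, and both miR-71a-5p and bantam were left out of both totals. Class shares were also taken without pooled classes or without Rfam. A scaling with all miRNAs as 1 class and all Rfam families as 1 class was added after seeing the data.

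Named known miRNAs are the members of lists by tissue or role, and others are the largest called folds each way (10 for miRNAs with a mean of at least 10 RPM of class tags, 5 for piRNAs and Rfam), the 5 most abundant per library and the 5 largest piRNA scaffolds per library. mir-184, let-7, Y RNA and other families shown beside a group, and predicted miRNAs shown for abundance within their class, were chosen after their values were seen. The members and lists were chosen with earlier results of these data known. In the deposited vesicle workbook, 1 column of another species' counts was not used. Mature sequences and scaffold species were read from that workbook, whose counts were not compared.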

Additional observations from a re-analysis of the deposited data

How the results depend on the processing

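With 1 library per group the counting intervals understate the true error, and a sparse entry is limited by its listing minimum. No paired analysis was possible because each group has 1 library. All scalings used to judge calls kept 6 of the 11 higher and 2 of the 2 lower known miRNAs, 6 of the 12 higher and 21 of the 21 lower predicted miRNAs, 51 of the 51 higher and 78 of the 78 lower piRNAs, and 5 of the 6 higher and 8 of the 8 lower Rfam families. The 5 known miRNAs lost were miR-1, miR-1a-5p, miR-2e-5p_1, miR-307 and miR-7-3p. They were lost without miR-71a-5p and bantam in the class totals, where 6 known miRNAs were higher. The serC leader was lost with median-of-ratios factors, TMM and the joined classes. A call already had to pass the library and class scales, which are 2 of the 6 scalings. For miRNAs and piRNAs the median-of-ratios and TMM factors lay between those of the 2 scales and could not remove a call. Joined classes left piRNAs unchanged, and their most abundant entry held 0.687% of the class in metacercariae and 0.463% in adult worms. Keeping all piRNA calls was thus nearly fixed in advance.

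Counts of calls moved by over 1.5 times as follows, and the cause was not tested. Lower known miRNAs, 2 as reported, became 9 on the class scale alone, 7 with median-of-ratios factors and 4 with TMM. Higher predicted miRNAs, 12 as reported, became 22 on the library scale alone, 7 among entries listed in both libraries and 6 with joined classes, and the 21 lower became 8 among entries listed in both. Higher piRNAs, 51 as reported, became 170 on the class scale alone, 105 with median-of-ratios factors, 113 with TMM and 25 among entries listed in both, while the 78 lower became 255 on the library scale alone and 41 among entries listed in both. Higher Rfam families, 6 as reported, became 18 on the library scale alone, 22 on the class scale alone, 17 with median-of-ratios factors, 17 with TMM, 11 without the most abundant entry and 13 with joined classes. The 8 lower became 18, 26, 19, 20, 13 and 18 in the same order.

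The log2 ratio of class shares, metacercariae over adult worms, was 1.27 for known miRNAs, 0.40 for predicted miRNAs, -0.57 for piRNAs and 1.47 for Rfam. Over named entries only, without the pooled classes, it was 0.11, -0.76, -1.73 and 0.31 in the same order, so predicted miRNAs changed direction. Known miRNAs fill most of that total in both libraries, so their ratio had little room to rise there. Without Rfam it was 1.30, 0.43 and -0.54 for the first 3. Of uncalled Rfam families, 5.8S rRNA and small subunit rRNA had log2 ratios of 0.08 and 0.06 on the class scale. These turned to -3.03 and -3.05 on the library scale, -3.27 and -3.29 with median-of-ratios factors, -3.38 and -3.40 with TMM, and -4.50 and -4.52 with joined classes.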
